A study of Mus musculus with 2 samples.

Results

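Sox13, Maf, Sox4, Rora, Batf, Ikzf2 and Ikzf3 are transcription factor genes that act in the specification or maintenance of T cell effector types. They were taken by symbol, as 7 of the 32285 genes counted, and each symbol had a single row. Their transcripts were examined in lung γδ T cells of 5 to 7 week old, uninfected mice. The cells formed 2 droplet libraries of flow-sorted cells, 1 per genotype. The WT library was made from Vγ1-negative γδ T cells of C57BL/6NCrl mice. The other, labelled KO, came from Vγ1-positive γδ T cells of strain B6.Cg-Tcrgtm1lku(B6.Vg4-/-Vg6-/-), which by its name lacks Vγ4 and Vγ6. The number of mice in each library is not given in the sources used here, and the study used mice of both genders.

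γδ T cells acquire their effector type largely during thymic development. IL-17-producing cells (γδ17) mostly bear Vγ6 or Vγ4 chains, whereas Vγ1 T cells are mostly known for interferon-γ or IL-4. Sox13, a SOX-family factor, and c-Maf, the product of Maf, both act in the development of γδ17 cells. RORα, the product of Rora, is a nuclear receptor that promotes the IL-17 program in T helper cells. Sox4 encodes another SOX factor active in immature thymocytes and early γδ17 precursors. BATF is an AP-1 factor that pairs with JUN proteins. Ikzf2 and Ikzf3 encode the zinc finger proteins Helios and Aiolos of the Ikaros family.

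Cells were grouped by their own transcripts. Tmem176b, a membrane protein gene typical of IL-17-type lymphocytes, divided each of 3 classes of Tcrg-V transcript. Of 2505 WT cells, 520 had unique molecular identifiers (UMIs) of Tcrg-V6 and of no other Tcrg-V gene (V6 cells), and 410 had UMIs of Tcrg-V4 alone (V4 cells). Of 6634 KO-labelled cells, 2880 had Tcrg-V1 UMIs (V1 cells). Tmem176b UMIs were found in 458 V6 cells, 168 V4 cells and 911 V1 cells, and 62, 242 and 1969 cells of these classes had none. With every cell thinned to 2000 UMIs, the share with Tmem176b was 81.8% of V6, 33.2% of V4 and 25% of V1 cells.

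Libraries held 9173997 (WT) and 26436826 (KO-labelled) UMIs, and 23 barcode sequences occurred in both. Group sums ran from 173615 UMIs in the Tmem176b- V6 cells, the shallowest group, to 8965001 in the Tmem176b- V1 cells. Median depth ran from 2620 UMIs per cell in the former to 4542 in the Tmem176b+ V1 cells. Against the KO label, 990 of 6634 cells (14.9%, exact 95% interval 14.1 to 15.8) had Tcrg-V4 UMIs, among them 26.6% of the Tmem176b+ and 18.7% of the Tmem176b- V1 cells. Tcrg-V6 UMIs were found in 0 of 6634, which allows up to 0.0452% of cells. The study, by contrast, describes the KO Vγ1 cells of its γδ17 clusters as expressing neither Tcrg-V4 nor Tcrg-V6. Those clusters are not the groups used here. No source used here states whether a Tcrg-V4 sequence remains readable after the deletion, so the label is kept as a label. The WT library also held transcripts against its Vγ1-negative label, with Tcrg-V1 UMIs in 196 of 2505 cells (7.82%, 6.80 to 8.95). The V6 and V4 groups leave these cells out. Y-linked genes had UMIs in 24.2% to 33.9% of the cells of the WT groups and in 0.110% and 0.711% of the V1 groups, so the libraries also differed in these transcripts. All 4 T cell markers (Cd3e, Cd3d, Cd3g and Trdc) had UMIs in all 6 groups. As each genotype is 1 library, no test was possible: levels are UMIs summed over a group and scaled to a total of 1000000 UMIs (CPM), and all intervals are 95% intervals that cover counting error only. Genotype, strain, sort, library and any difference in the sex of the mice cannot be told apart in any comparison of V1 with WT cells. Nor can fewer expressing cells be told from less RNA per cell in a summed level.

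The genes lie on 6 chromosomes in the GRCm38 build. All are protein coding. Sox13 (ENSMUSG00000070643) and Ikzf2 (ENSMUSG00000025997) lie on the minus strand of chromosome 1, at chr1:133382303-133424377 and chr1:69531214-69687245. The intervals of Maf (ENSMUSG00000055435) and Sox4 (ENSMUSG00000076431), also on the minus strand, are chr8:115682942-115707794 and chr13:28948919-28953713. Rora (ENSMUSG00000032238) occupies chr9:68653786-69388246 and Batf (ENSMUSG00000034266) chr12:85686669-85709087, both on the plus strand, and Ikzf3 (ENSMUSG00000018168) chr11:98464902-98546031 on the minus strand. Promoter sequence from RefSeq (GRCm38.p6) matched 4 of the 7 genes (Sox13, Sox4, Rora and Batf). The stretches upstream of any annotated exon are shown for Sox13 and Rora, which were higher in Tmem176b+ V1 cells, and for Sox4, which was lower. They cover chr1:133424378-133424462 (minus strand), chr9:68653536-68653785 (plus strand) and chr13:28953714-28953949 (minus strand). Capitals mark matches, on either strand, to the short motifs bound by factors of these families: ACAAT (SOX), TGCTGA (MAF), AGGTCA (ROR), TGANTCA (AP-1) and GGGAA (Ikaros).
Sox13: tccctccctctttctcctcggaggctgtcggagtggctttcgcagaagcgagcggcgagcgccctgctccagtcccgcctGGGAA
Rora: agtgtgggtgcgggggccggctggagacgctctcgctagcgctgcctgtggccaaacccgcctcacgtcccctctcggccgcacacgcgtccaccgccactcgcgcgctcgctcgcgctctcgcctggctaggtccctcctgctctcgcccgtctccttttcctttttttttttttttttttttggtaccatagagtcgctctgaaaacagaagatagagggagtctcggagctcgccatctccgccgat
Sox4: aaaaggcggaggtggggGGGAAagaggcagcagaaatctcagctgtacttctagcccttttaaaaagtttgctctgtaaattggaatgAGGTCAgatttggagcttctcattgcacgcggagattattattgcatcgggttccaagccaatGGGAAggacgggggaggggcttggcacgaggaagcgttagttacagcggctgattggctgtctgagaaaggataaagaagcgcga
In the 236 bases of Sox4 the search matched 1 AGGTCA at base 89 and 2 GGGAA at bases 18 and 152, counted from the 5′ end. The 85 bases of Sox13 held 1 GGGAA at base 81, and the 250 bases of Rora held no match. The 199 bases of Batf upstream of its exon held 1 GGGAA match, on the minus strand. Among 32851 RefSeq promoter windows cut to 236 bases, 13.3% held AGGTCA and 54.1% held GGGAA, which also occurred in 24.5% of windows of 85 bases. These matches describe letters and were not tested as binding sites.

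**Figure D1:**
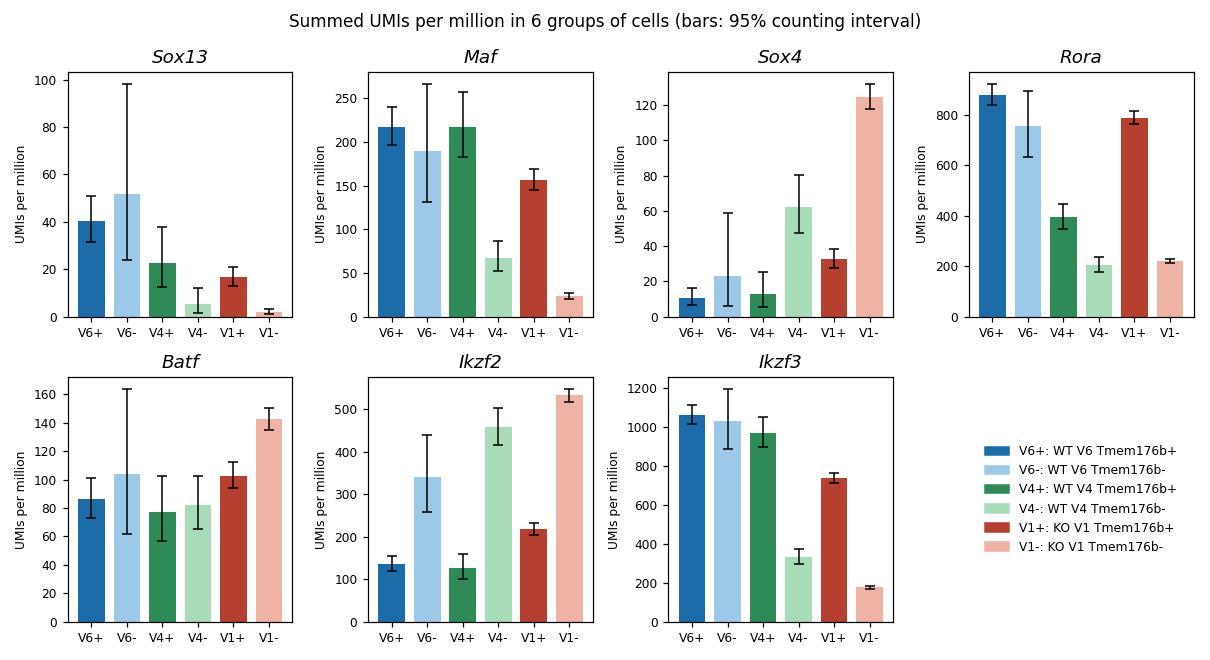
Level of the 7 genes in 6 groups of lung γδ T cells, as CPM of the UMIs summed over each group (y axis, linear, a separate scale per gene), with bars for the exact 95% counting interval. Labels give the Tcrg-V class and a plus or minus for Tmem176b. Sox13, Maf, Rora and Ikzf3 stand lowest in the Tmem176b- V4 and V1 cells, where Sox4 and Ikzf2 stand highest.

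The Tmem176b split separated the 7 genes into opposite patterns in V1 and V4 cells. By point value, ratios of the higher genes were larger in V1 cells, and those of the lower genes were larger in size in V4 cells. For Sox13 and Sox4 the V1 and V4 intervals overlapped, so their order is not settled. In V1 cells, Sox13, Maf, Ikzf3 and Rora were each more than 3.5-fold higher with Tmem176b, Sox4 and Ikzf2 were lower, and Batf stood within 2-fold. Of the 7 genes, 4 were at least 2-fold higher and 2 at least 2-fold lower. Over the 10540 genes with at least 30 UMIs in both groups together, 11.6% lay past 2-fold in either direction. The share was 6.37% for genes at least 2-fold higher and 5.19% for genes at least 2-fold lower. In V4 cells, the ratios of these 6 genes had the same signs. In V6 cells Ikzf2 alone, of the 6 genes with 30 UMIs, was past 2-fold, where 7.36% of 6613 genes were at least 2-fold higher and 8.74% at least 2-fold lower.

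Sox13 was the most sparsely counted of the genes that were higher with Tmem176b. Its 76 UMIs in Tmem176b+ V1 cells gave 16.6 CPM (13.1 to 20.8), against 19 UMIs and 2.12 CPM (1.28 to 3.31) in Tmem176b- V1 cells. The ratio was 7.85-fold, or 2.97 (2.23 to 3.78) on the log2 scale. Its level was 40.4 CPM in Tmem176b+ and 51.8 CPM in Tmem176b- V6 cells, the latter from only 9 UMIs, and these levels overlapped in their counting intervals. In V4 cells it was 22.6 CPM with Tmem176b and 5.19 CPM without, a log2 ratio of 2.12 (0.57 to 3.95) that rested on 19 UMIs. By point value, both V6 groups thus stood highest and the Tmem176b- V1 cells lowest. The step from Tmem176b+ V6 to Tmem176b+ V4 cells only just exceeded its interval (log2 0.84, 0.0025 to 1.78). The steps from Tmem176b+ V4 to Tmem176b+ V1 cells and from Tmem176b- V4 to Tmem176b- V1 cells had intervals that included 0. At 2000 UMIs per cell, a Sox13 UMI was found in 8.70% of Tmem176b+ V6 cells, 3.26% of Tmem176b+ V1 cells and 0.268% of Tmem176b- V1 cells.

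Maf, the c-Maf gene, was at 217 CPM in Tmem176b+ V6 cells, 218 in Tmem176b+ V4 cells, 190.1 in Tmem176b- V6 cells and 157 in Tmem176b+ V1 cells. The first 3 of these levels had overlapping intervals, and the last lay 0.47 log2 units below the first (interval of the ratio -0.65 to -0.29). The step from Tmem176b- V6 to Tmem176b+ V1 cells had an interval that included 0 (log2 0.28, -0.27 to 0.78). Maf was at 67.5 CPM in Tmem176b- V4 cells and at 23.6 CPM in Tmem176b- V1 cells, where 212 UMIs were spread over 170 of 1969 cells. The ratio of Tmem176b+ to Tmem176b- cells was 2.73 (2.5 to 2.96) on the log2 scale in V1 cells, 1.69 (1.25 to 2.14) in V4 cells and 0.19 (-0.32 to 0.75) in V6 cells.

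Ikzf3, which encodes Aiolos, followed nearly the same order. It was at 1061 CPM in Tmem176b+ V6, 1031 in Tmem176b- V6, 969 in Tmem176b+ V4 and 735 in Tmem176b+ V1 cells, then at 332 in Tmem176b- V4 and 176 in Tmem176b- V1 cells. The first 3 overlapped and each later step exceeded its counting interval. With Tmem176b it was 4.17-fold higher in V1 cells (log2 2.06, 1.97 to 2.15) and 2.92-fold higher in V4 cells (log2 1.54, 1.35 to 1.74). In V6 cells the log2 ratio was 0.04 (-0.18 to 0.27).

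Rora had a different order, in which Tmem176b+ V1 cells stood close to V6 cells and apart from V4 cells. Its level was 879 CPM in Tmem176b+ V6, 787 in Tmem176b+ V1 and 755 in Tmem176b- V6 cells. It was 393 in Tmem176b+ V4, 219.9 in Tmem176b- V1 and 204 in Tmem176b- V4 cells, and the last 2 overlapped. The Tmem176b split gave log2 1.84 (1.76 to 1.92) in V1 cells and 0.95 (0.67 to 1.23) in V4 cells. After thinning, 80.3% of Tmem176b+ V6, 71.7% of Tmem176b+ V1 and 51.2% of Tmem176b+ V4 cells had a Rora UMI.

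Sox4 ran opposite to these genes. It was highest in Tmem176b- V1 cells, at 124.8 CPM from 1119 UMIs, followed by 62.3 CPM in Tmem176b- V4 cells and 32.6 CPM in Tmem176b+ V1 cells, and each of these steps exceeded its interval. Tmem176b- V6 cells were at 23.0 CPM from 4 UMIs, Tmem176b+ V4 cells at 12.9 CPM from 8 UMIs and Tmem176b+ V6 cells at 10.5 CPM from 19 UMIs, and these 3 could not be ordered at this depth. The log2 ratio with Tmem176b to without was -1.94 (-2.19 to -1.69) in V1 cells and -2.27 (-3.55 to -1.20) in V4 cells. With thinned cells, 17.0% of Tmem176b- V1 cells and 3.94% of Tmem176b+ V1 cells had a Sox4 UMI.

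Ikzf2, which encodes Helios, was the single gene of the 7 past 2-fold on 30 or more UMIs in all 3 classes, and it was lower with Tmem176b in each. Its level was 533 CPM in Tmem176b- V1, 458 in Tmem176b- V4 and 339.8 in Tmem176b- V6 cells. With Tmem176b it was 218 CPM in V1, 137 in V6 and 127 in V4 cells, so each group with Tmem176b lay below each group without. The log2 ratios were -1.29 (-1.39 to -1.19) in V1, -1.85 (-2.21 to -1.50) in V4 and -1.31 (-1.73 to -0.88) in V6 cells. With cells thinned before grouping, the V6 ratio was -0.70 and no longer past 2-fold. In V6 cells the count of 1 gene is read against 16.1% of all genes past 2-fold, the widest background of the 3 splits. Few cells carried much of the V6 and V4 sums: 1 cell gave 14 of the 59 UMIs of Tmem176b- V6 cells and another 12 of the 79 UMIs of Tmem176b+ V4 cells.

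Batf varied least. It lay between 77.4 CPM in Tmem176b+ V4 cells and 142 CPM in Tmem176b- V1 cells, and none of the 5 steps between groups ordered by level exceeded its counting interval. The log2 ratio for the Tmem176b split was -0.47 (-0.62 to -0.32) in V1 cells, -0.08 (-0.63 to 0.45) in V4 cells and -0.26 (-0.97 to 0.53) in V6 cells.

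**Figure D2:**
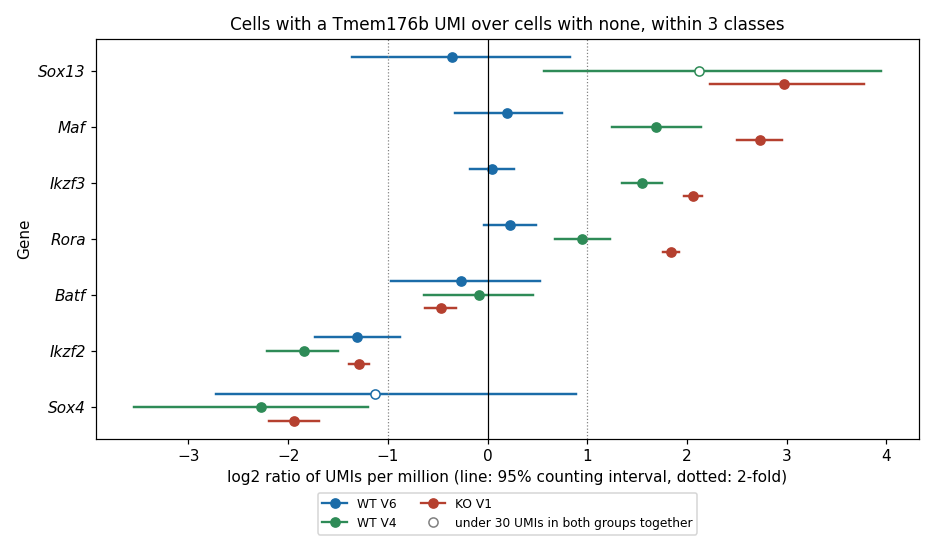
Log2 ratio of CPM, cells with a Tmem176b UMI over cells with none (x axis), for the 7 genes (y axis) within V6, V4 and V1 cells, with lines for the 95% counting interval and dotted lines at 2-fold. Sox13, Maf, Ikzf3 and Rora lie to the right of 0 in V4 and V1 cells, V6 cells lie near 0 for Maf, Ikzf3 and Rora, and Ikzf2 lies left of 0 in all 3. Open points rest on under 30 UMIs.

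Of the 6 genes with 30 UMIs in V4 cells, Maf and Ikzf3 were at least 2-fold higher with Tmem176b and Ikzf2 and Sox4 at least 2-fold lower, where 11% of 6127 genes lay past 2-fold, 4.21% higher and 6.82% lower. Rora, at 0.95, fell just short of it. The Tmem176b+ groups also had larger shares of UMIs from 7 immediate-early and heat-shock genes, used here as handling genes. These were Fos, Jun, Fosb, Egr1, Hspa1a, Hspa1b and Dnajb1. The shares were 0.211% against 0.107% in V1, 0.379% against 0.191% in V4 and 0.232% against 0.132% in V6 cells. What raised these genes was not tested. With the 25% of cells richest in these genes left out of each library, the V1 log2 ratios were 2.89 for Sox13, 2.74 for Maf, 2.06 for Ikzf3, 1.79 for Rora, -1.19 for Ikzf2 and -1.66 for Sox4. With cells that had UMIs of another Tcrg-V gene left out, V1 cells gave 2.59, 2.92, 2.12, 2.0, -1.35 and -1.90 for the same genes.

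Some sorted cells were of other types, and they set a background for these shares. Cells with at least 2 B cell markers and no T cell marker numbered 16 (WT) and 7 (KO-labelled), at median depths of 1803.5 and 2169 UMIs. Those with myeloid markers numbered 33 and 16, at 3775 and 1800.5 UMIs. Sox13 was found in 0 of 33 WT myeloid cells, which allows up to 9.09%, and in 0 of 16 WT B cells, which allows up to 18.8%. Sox4 was in 1 of the 16 WT B cells and in 0 of the 33 WT myeloid cells, Rora and Ikzf2 each in 2 of these 33. In KO-labelled cells, Sox13 and Sox4 were found in 0 of 16 myeloid cells, which allows up to 18.8%. Shares counted without thinning, as in these cells, were set against the myeloid cell limit of each library. Sox13 lay above it in V6 cells alone (13.1% with and 12.9% without Tmem176b). The interval of the latter share, 5.74% to 23.9%, reached below that limit, and both shares lay below the 18.8% that WT B cells allow. Sox4 lay above the myeloid cell limit in the Tmem176b- V4 (15.3%) and Tmem176b- V1 cells (29.0%). These few cells set no limit low enough to place the other Sox13 and Sox4 shares against free RNA. Within the KO-labelled library, the unthinned Sox13 share was 7.03% of Tmem176b+ and 0.914% of Tmem176b- V1 cells. The part of free RNA in these shares was not tested. Ikzf3, also a B cell gene, had UMIs in 8 of 16 WT B cells. Maf, also a macrophage gene, had UMIs in 5 of 33 WT myeloid cells and Tmem176b in 11 of 33. All 5 myeloid markers (Lyz2, Csf1r, Cd14, Cst3 and Itgax) had UMIs in both V1 groups, summing to 285 CPM with Tmem176b and 132 CPM without, whereas in V4 cells the sum was 387 CPM with and 577 CPM without. With cells left out that had 2 or more B or 2 or more myeloid markers, or over 2.5 times the median depth of their library, the log2 ratio of Maf was 2.75 in V1 and 1.48 in V4 cells. Summed αβ T cell transcripts (Trac, Trbc1 and Trbc2) ran from 657 to 1430.5 CPM, highest in Tmem176b- V1 cells, and their part in the results was not tested.

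**Figure D3:**
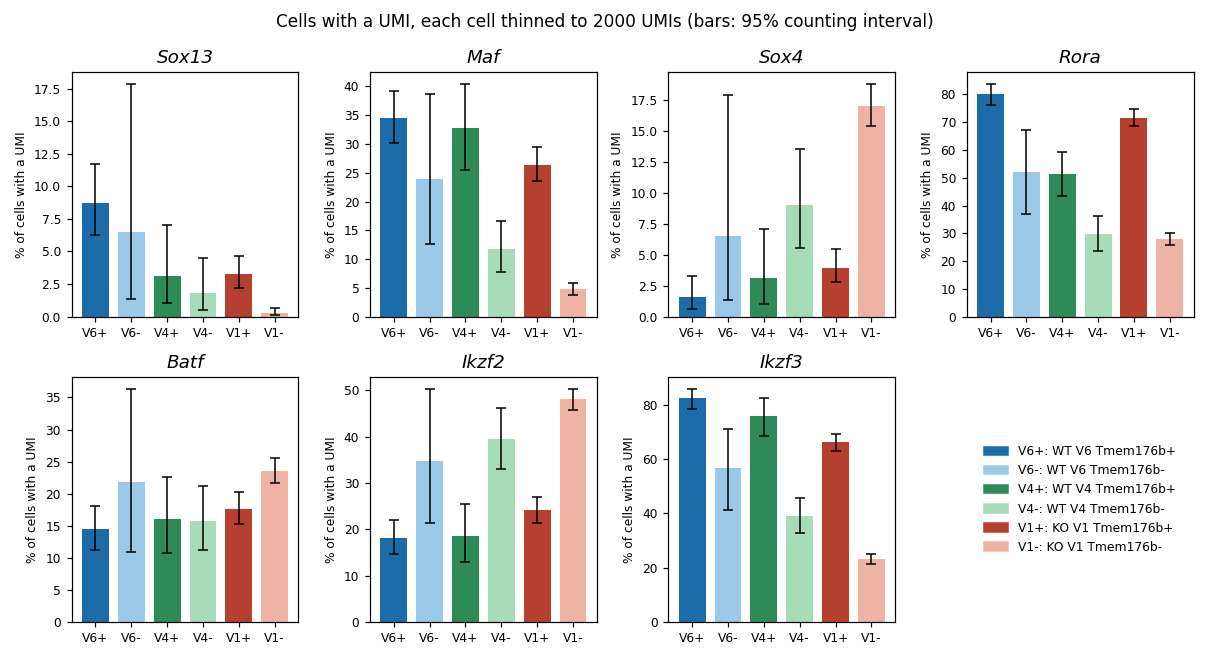
Percent of cells with a UMI of each gene (y axis, linear, a separate scale per gene) after each cell was thinned to 2000 UMIs, with exact 95% binomial intervals. Rora was found in 80.3% of Tmem176b+ V6 and 71.7% of Tmem176b+ V1 cells, and Sox4 in 17.0% of Tmem176b- V1 cells against 3.94% of Tmem176b+ V1 cells.

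The study asked how Vγ1 T cells of mice without Vγ4 and Vγ6 cells resemble the γδ17 cells of WT mice, so the Tmem176b+ groups were compared next. KO-labelled V1 cells had less Sox13 and more Sox4 than WT V6 cells. Sox13 was 2.43-fold lower (log2 -1.28, -1.76 to -0.80) and Sox4 3.1-fold higher (log2 1.63, 0.94 to 2.40), and these 2 were the only ones of the 7 genes past 2-fold, where 10.2% of 9313 genes were, 6.46% higher and 3.76% lower. Ikzf2 was higher by 0.67 (0.47 to 0.88), Maf lower (log2 -0.47) and Ikzf3 lower (log2 -0.53, -0.61 to -0.45). The log2 ratios of Rora and Batf were -0.16 (-0.25 to -0.07) and 0.25 (-0.01 to 0.52).

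Against Tmem176b+ V4 cells, V1 cells had 2.53-fold more Sox4 (log2 1.34, 0.32 to 2.58), counted from only 8 UMIs in V4 cells, and 2-fold more Rora (log2 1.0, 0.81 to 1.19), where 10.6% of 8907 genes were past 2-fold, 7.7% higher and 2.86% lower. When 2 UMIs of the Tcrg-V gene were required, neither was past 2-fold (Sox4 -0.030, Rora 0.75). When cells were thinned before grouping, Rora was at 0.80, and Sox4 had no UMI left in the V4 cells, so only a lower bound of 0.35 could be given. Sox13 was at -0.44 (-1.28 to 0.50), Maf at -0.47 (-0.74 to -0.20), Ikzf3 at -0.40 (-0.52 to -0.27), Ikzf2 at 0.77 (0.44 to 1.12; 0.11 to 1.13 over 10 alternatives, past 2-fold in 2) and Batf at 0.41 (-0.02 to 0.87). The interval of Sox13 thus includes both no difference and a level more than 2-fold lower. Within WT, Tmem176b+ V6 cells had 2.23-fold more Rora than V4 cells (log2 1.16, 0.96 to 1.36). It was the single gene past 2-fold of 6, against 8.47% of all genes (5.67% higher and 2.8% lower). The ratio of Rora was 0.80 with thinned cells and 0.98 with 2 Tcrg-V UMIs. Sox13 was at 0.84 (0.0025 to 1.78; 0.21 to 2.02 over 10 alternatives, past 2-fold in 2). Its interval included 0 with thinned cells (0.21, -1.08 to 1.77) and with size factors (0.81, -0.03 to 1.75). Maf, Batf, Ikzf2 and Ikzf3 stood between -0.0046 and 0.16.

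Among cells with no Tmem176b UMI, V1 cells had less Maf than V4 cells (2.85-fold, log2 -1.51, -1.92 to -1.09), and Sox4 was at the 2-fold line (log2 1.0, 0.63 to 1.40). Over 10 alternatives Sox4 was past 2-fold in 3 (0.42 to 1.06) and Maf in 9, with Maf at -0.68 when 2 Tcrg-V UMIs were required. Over all genes 9.54% were past it, 5.22% higher and 4.33% lower. Ikzf3 was at -0.91 (-1.09 to -0.74) and past 2-fold in 4 of the alternatives, Batf at 0.80 (0.47 to 1.14), Ikzf2 at 0.22 (0.08 to 0.36) and Rora at 0.11 (-0.10 to 0.33). Sox13 had 24 UMIs in both together and was not counted. A cell with no Tmem176b UMI is not shown to lack the transcript. IL-17-type genes were also more abundant in the V4 than the V1 cells of this class: 8 of 14 were at least 2-fold lower in V1 cells, Il17a among them at 4.91 against 82.0 CPM.

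**Figure D4:**
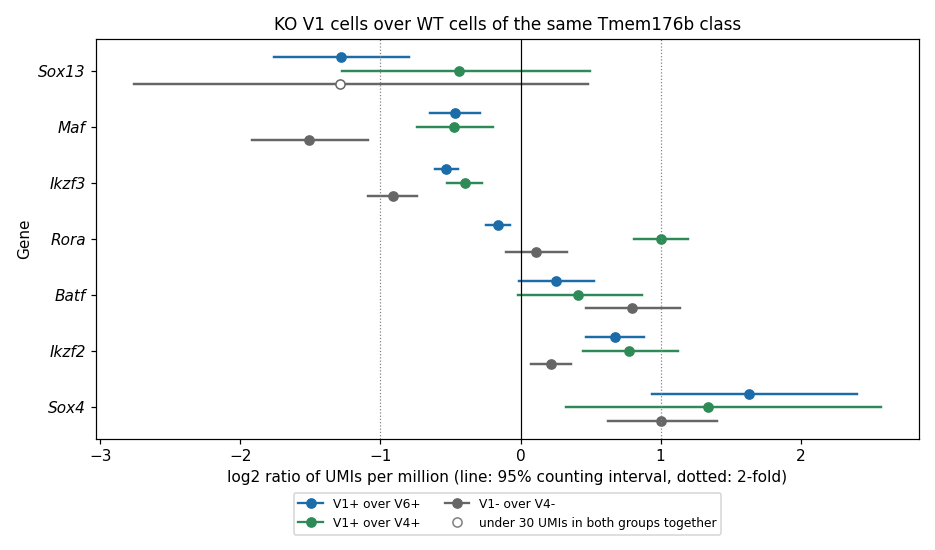
Log2 ratio of CPM for KO-labelled V1 cells over WT cells (x axis), for the 7 genes (y axis) in cells with Tmem176b against V6 and V4 cells and in cells without it against V4 cells, with lines for the 95% counting interval and dotted lines at 2-fold. Sox4 lies right of 0 and Maf and Ikzf3 left of 0 in all 3 comparisons, and Rora lies at 1.0 against Tmem176b+ V4 cells only. An open point rests on under 30 UMIs.

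The pairing of the genes within single cells was described at 2000 UMIs per cell. Cells of a group share 1 library and are not replicates, so these shares are descriptions. In Tmem176b- V1 cells, the 88 cells with a Maf UMI had Rora in 55.7% and Ikzf3 in 40.9%, against 26.6% and 22.2% of the other 1776 cells. They had Ikzf2 in 34.1% against 48.8%. Maf was found in 3 of the 5 Sox13 cells of this group, whereas in Tmem176b+ V1 cells it was found in 5 of 29 (17.2%) against 26.7% of the other 860. Its 317 cells with Sox4 had Ikzf2 in 61.2%, against 45.4% of the rest.

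In Tmem176b+ V1 cells, Ikzf3 was found in 72.8% of the 637 cells with Rora and in 49.6% of the 252 without. The 35 cells of this group with Sox4 had Rora in 42.9% against 72.8% of the others, Maf in 8.57% against 27.2% and Ikzf2 in 48.6% against 23.1%. In this group the exact intervals of each of these pairs of shares did not overlap. The intervals of Rora and Maf overlapped between Tmem176b- V1 cells with and without Sox4 (Rora 22.7% against 29.0%, Maf 2.52% against 5.17%). Of the 20 Tmem176b- V4 cells with Sox4, 25% had Maf against 10.3% of the others, with intervals that also overlapped. Rora and Ikzf3 were likewise found together in V4 cells, where 86.7% of the 83 Tmem176b+ cells with Rora had Ikzf3, against 64.6% of those without. In Tmem176b+ V6 cells the shares were 82.9% of 351 cells with Rora and 80.2% of 86 without, with overlapping intervals.

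Other transcripts were used to divide the groups further. Among the 87 Tmem176b+ V1 cells with an Il17a UMI, Sox4 was 3.94-fold lower than in the other 824 (log2 -1.98, -3.87 to -0.59, from 4 against 145 UMIs), where 10.3% of all genes were past 2-fold. Ikzf3 was at 0.42 (0.27 to 0.57), Rora at 0.29 (0.14 to 0.44) and Ikzf2 at -0.52 (-0.90 to -0.17). In Tmem176b+ V4 cells the 48 cells with Il17a held 5 Ikzf2 UMIs and the 120 others 74, a log2 ratio of -2.64 (-4.30 to -1.35), beside a background of 6.45%. Of those 74 UMIs, 12 came from 1 cell. In these V4 cells Batf was also past 2-fold (log2 -1.07, -2.38 to 0.04), with an interval that includes 0. In Tmem176b+ V6 cells none of the 7 genes reached 2-fold (2.61% of all genes did), and Batf came nearest at -1.0 (-1.55 to -0.47). Maf and Sox13, at 0.19 (-0.17 to 0.53) and 0.64 (-0.43 to 1.57) in V1 cells, were not separated by Il17a beyond counting error.

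The δ chain segments of the Trav15-dv6 genes are typical of NKT-like Vγ1 T cells. The 245 Tmem176b+ V1 cells with such UMIs differed little from the other 666: all 7 genes stood within 2-fold (1.71% of all genes did not), from -0.20 for Batf to 0.39 for Sox4. Cd24a, which encodes a surface protein of immature T cells, divided the Tmem176b- V1 cells. Its 364 positive cells had 2.01-fold more Sox4 than the other 1605 (205 against 102 CPM, log2 1.01, 0.83 to 1.19). They had less Rora (log2 -1.10, -1.30 to -0.90) and less Maf (log2 -1.06, -1.71 to -0.46), against 3.71% of genes past 2-fold, and more Ikzf2 (log2 0.71, 0.62 to 0.79). Cells with Cd24a were also deeper, at a median of 4909 against 3828 UMIs, and the part of depth was not tested.

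CD27 is a costimulatory receptor of interferon-γ-type γδ T cells. The 1825 V1 cells with Cd27 UMIs had more Sox4 than the 1055 without (log2 1.30, 1.08 to 1.53) and less Sox13 (log2 -1.13, -1.74 to -0.52), where 3.65% of genes were past 2-fold. Ikzf2 was at 0.72, and Maf, Ikzf3 and Rora at -0.83, -0.80 and -0.69. In V4 cells, Sox4 (log2 1.33, 0.46 to 2.30) and Ikzf2 (log2 1.25, 0.95 to 1.57) were past 2-fold with Cd27, against 6.32% of genes. Only 34 V6 cells had Cd27. They held 14 of the 23 Sox4 UMIs of all V6 cells, had more Ikzf2 (log2 1.30, 0.88 to 1.70) and less Ikzf3 (log2 -1.19, -1.51 to -0.90), beside a background of 15.3%. Sox13 was also past 2-fold there (log2 -1.53, -3.84 to 0.07), with 3 UMIs in the cells with Cd27 and an interval that includes 0. Cd27-positive cells were deeper in all 3 classes (medians of 4519 against 3732 UMIs in V1, 3904 against 3063 in V4 and 5064.5 against 3560 in V6 cells).

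Relatives of the 7 genes followed their own pattern. Of 17 SOX, MAF, ROR, AP-1, IRF and Ikaros family genes, 11 reached 30 UMIs in V1 cells. With Tmem176b, 2 small MAF genes were at least 2-fold higher (Maff 45.1 against 14.1 CPM, Mafg 17.1 against 6.47), beside 6.37% of all genes. Another 2 were at least 2-fold lower, beside 5.19% of all genes. The latter were Sox5, which encodes a SOX factor of the same subgroup as SOX13 (18.6 against 77.2 CPM, log2 -2.05, -2.40 to -1.73), and Ikzf4, the Eos gene (5.25 against 17.6 CPM). Sox5 was thus on the side of Sox4 rather than Sox13. Its level was 9.68 CPM with and 35.3 CPM without Tmem176b in V4 cells. Ikzf1, the Ikaros gene, stood within 2-fold in V1 cells (159 against 233 CPM). The median log2 ratio of the 11 genes was -0.22, beside -0.08 for all genes.

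Of 25 other regulators of γδ T cells, 22 reached 30 UMIs in V1 cells, and 3 were at least 2-fold higher and 4 at least 2-fold lower with Tmem176b, beside 6.37% and 5.19% of all genes. The higher ones were Zbtb16, which encodes PLZF of innate-like T cells (404 against 161 CPM), Nfil3, a basic leucine zipper factor (25.2 against 4.91 CPM), and Prdm1, the Blimp-1 gene (5.25 against 1.23 CPM). The lower ones were Lef1 (201 against 708 CPM) and Tcf7 (218 against 474 CPM), the TCF-1 family genes of naive and precursor T cells, Id3 (16.8 against 49.2 CPM) and Eomes (1.53 against 8.25 CPM). In V4 cells, 2 of 18 were higher and 5 lower, beside 4.21% and 6.82% of all genes, and in V6 cells 1 of 16 was higher and 4 lower, beside 7.36% and 8.74%. The median of the list was -0.28 in V1, -0.52 in V4 and -0.66 in V6 cells, beside -0.08, -0.07 and -0.07 for all genes.

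Effector genes marked the same split in V1 and V4 cells. Of 14 IL-17-type genes, 12 were at least 2-fold higher with Tmem176b in V1 cells (median log2 3.41), 14 in V4 cells (1.99) and 3 in V6 cells (0.65). Among those higher in V1 cells was Il23r, the IL-23 receptor gene, at 235 against 13.9 CPM. In V6 cells Il23r was at 437 CPM with and 622 CPM without Tmem176b. There 5830411N06Rik, the SCART2 gene, was at least 2-fold lower, beside 8.74% of all genes, and 10 of the 14 stood within 2-fold. Tmem176a, a neighbour and relative of Tmem176b, is in this list. Over all genes, 6.37% were at least 2-fold higher in V1, 4.21% in V4 and 7.36% in V6 cells, with medians of -0.08, -0.07 and -0.07. Of 12 type 1 genes, all measured in V1 cells, 1 was at least 2-fold higher and 4 lower (median -0.70), beside 6.37% and 5.19% of all genes. In V4 cells 1 of the 10 measured was higher and 7 were lower (median -2.63), beside 4.21% and 6.82%. In V6 cells none of the 8 measured was higher and 5 were lower (median -1.55), beside 7.36% and 8.74%. Against Tmem176b+ V6 cells, the Tmem176b+ V1 cells had 6 of 14 IL-17-type genes at least 2-fold lower and 1 higher (median -0.76). They had 8 of 11 type 1 genes higher and 1 lower (median 1.33). Over all genes, 6.46% were at least 2-fold higher and 3.76% lower, with a median of 0.06. Tcf7, Lef1, Id3 and Ahr were the regulators at least 2-fold higher in that comparison, and Nfil3 and Prdm1 those lower.

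The genes whose profile over the 6 groups was most like each of the 7 were found among 8897 genes by the root mean square distance of centred log2(CPM + 10) values. For Sox13 they were Mpp7 (distance 0.14), Rhoq and Slc15a3. Those for Maf were Hk2, the hexokinase 2 gene (0.21), Trmt61b and Prelid2, and those for Ikzf3 were Myo1e (0.18), Nebl and Trmt61b, so 1 gene was shared between Maf and Ikzf3. Sox4 was nearest to Slamf6, which encodes a SLAM-family receptor (0.16), Ppic and Adk. Rora was nearest to Adgrg5 (0.21), Lgals1, the galectin-1 gene, and Coro2b, and Ikzf2 to Gimap9 (0.11), Sidt1 and Epsti1. Batf, which varied least, had Puf60 (0.06), Gm13012 and B4galnt1. With 1 or 50 added to the CPM in place of 10, between 0 and 2 of the 3 genes remained for each. The profiles rest on 6 groups from 2 libraries, and no shared function or control is read from them.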

How the data were processed

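Lung γδ T cells of uninfected mice were profiled in 2 droplet libraries, 1 labelled WT and 1 labelled KO. The values deposited by the authors are raw UMI counts for each gene in each barcode, aligned to mm10 by Cell Ranger. Its version is 7.0.0 per the file headers and 7.0 per the submitters' notes, and the methods of the study state an earlier one. The methods name a 5′ V(D)J kit and the labels a 3′ protocol. Settings for introns and strand, and the annotation release, were not stated in the sources used here.

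Cells with over 200 and under 4000 genes and under 10% mitochondrial UMIs were kept, as in the study's methods, which left 2505 of 2520 WT and 6634 of 6688 KO-labelled barcodes, more than the study states for each library. Median depth was 3288 and 3521 UMIs per cell. Doublets were not removed, and an alternative left out 177 WT and 295 KO-labelled cells as likely doublets. The V6 and V4 classes had UMIs of that Tcrg-V gene and of none of the other Tcrg-V genes examined, and the V1 class had Tcrg-V1 UMIs. Classes were set by transcript, not by surface protein.

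UMIs were summed over a group and scaled to CPM. Log2 ratios carry exact conditional 95% intervals, levels exact Poisson intervals and shares exact Clopper-Pearson intervals, all for counting error only. A share of 0 is given with the limit that 3 counts allow. With 1 library per genotype no test was run. A gene was counted as past 2-fold if its log2 ratio was at least 1 in size and both groups together had at least 30 UMIs, with a group at 0 UMIs set to 3. For shares, each cell was thinned to 2000 UMIs and shallower cells were left out (21, 16, 6, 19, 22 and 105 cells of the V6, V4 and V1 groups, with Tmem176b first in each class). Profiles were compared over genes with at least 100 UMIs in the 6 groups together. The 7 genes and the gene lists were chosen with earlier results of these data known, and support nothing by having been chosen. Named genes were the 7 members, genes of the lists and the 3 genes nearest in profile to each member, leaving out TCR genes, Xist and Y-linked genes. The list of family genes was drawn up with 1 further gene, which is not reported here. Coordinates are from GENCODE and promoter sequences from RefSeq.

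Python 3.11.15, numpy 2.4.6, scipy 1.17.1, pandas 2.3.3 and matplotlib 3.10.9 were used. On simulated sums for the KO-labelled V1 against the WT V4 cells with Tmem176b (8886 genes, 200 of them changed), 99% of the changed genes came out in the simulated direction, and the simulated ratio lay inside 96.5% of the intervals. The sums were drawn as Poisson counts, the error that the intervals assume. This coverage thus checks the computation and says nothing of the spread between cells or mice.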

Additional observations from a re-analysis of the deposited data

Results flagged for a closer look

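The Tmem176b split of Sox13 had opposite signs across classes. The log2 ratio with Tmem176b over without was -0.36 (-1.36 to 0.83) in V6 cells, 2.12 (0.57 to 3.95) in V4 cells and 2.97 (2.23 to 3.78) in V1 cells. The Tmem176b- V6 cells gave 9 Sox13 UMIs, and the difference between classes was not tested.

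Cells outside the 6 groups also held transcripts of all 7 genes, at shares higher than a count of 0 would permit (0.190% of 1575 WT cells and 0.0799% of 3754 KO-labelled cells). In the WT cells, at a median of 3137 UMIs, a UMI was found in 5.08% for Sox13, 22.9% for Maf, 8.25% for Sox4, 53.6% for Rora, 24.8% for Batf, 39.9% for Ikzf2 and 59.9% for Ikzf3. In the KO-labelled cells, at a median of 3129 UMIs, the shares were 1.41% for Sox13, 10.6% for Maf, 16.5% for Sox4, 40.3% for Rora, 31.1% for Batf, 48.7% for Ikzf2 and 36.2% for Ikzf3. By label, the WT cells were sorted as Vγ1-negative and the KO-labelled cells as Vγ1-positive. The labels do not say which chain the WT cells carry, and the KO-labelled cells outside the groups had no Tcrg-V1 UMI. None of these cells enter a comparison.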

How the results depend on the processing

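No paired analysis was possible because only 1 library was made per group. Of 487 log2 ratios of the 7 genes recomputed under 10 alternatives, 418 stayed within the interval of the reported value, 68 moved beyond it and 1 value past 2-fold changed sign. Thinning before grouping moved 21 of 47 and the requirement of 2 Tcrg-V UMIs 16 of 48, whereas size factors and leaving out cells with Y-linked UMIs moved none of 49. Size factors relative to UMI totals ran only from 0.978 to 1.06 over the groups, so they could shift the ratios little. Male cells with no Y-linked UMI would stay in the other alternative, and the part of sex was not tested. In V1 cells with over without Tmem176b, the range over the 10 alternatives was 2.44 to 3.60 for Sox13, 2.26 to 2.92 for Maf, 1.85 to 2.17 for Ikzf3, 1.64 to 2.0 for Rora, -1.68 to -1.19 for Ikzf2 and -2.43 to -1.66 for Sox4.

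With a minimum of 100 in place of 30 UMIs, fewer genes were past 2-fold over all genes: 753 instead of 1218 for the Tmem176b split in V1 cells, 220 instead of 676 in V4 cells and 296 instead of 1065 in V6 cells. The counts were 212 instead of 602 for Tmem176b+ V6 over V4 cells, 426 instead of 952 for V1 over V6 cells, 334 instead of 941 for V1 over V4 cells and 414 instead of 953 for V1 over V4 cells without Tmem176b. Fewer genes reach the higher minimum by construction.

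The number of the 7 genes past 2-fold moved in the smaller comparisons, and the cause was not tested. For Tmem176b+ V6 over V4 cells it was 1, 0 after thinning and 2 without the cells highest in handling genes. For Tmem176b+ V1 over V4 cells it was 2, then 0 after thinning, 0 with 2 Tcrg-V UMIs (where Sox4 was at -0.030), 1 with size factors, 1 without the cells highest in handling genes and 3 with Tmem176b from 2 UMIs (where Ikzf2 was at 1.13). For V1 over V4 cells without Tmem176b it was 2, then 1 with no cell filter, 1 with 2 Tcrg-V UMIs, 1 without cells with Y-linked UMIs and 1 without the cells highest in handling genes. An equal count did not always hold the same genes: Ikzf3 passed in 4 alternatives and Batf in 1 where Sox4 passed in 3. For V6 cells with over without Tmem176b it was 1, and 0 after thinning (Ikzf2 at -0.70).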
